A study of Rattus norvegicus with 8 samples.

Results

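The genes followed here take part in how muscle makes and moves lactate: the lactate dehydrogenase subunit genes Ldha and Ldhb, and the lactate transporter genes Slc16a1 and Slc16a3. The members were every probe set annotated to exactly 1 of these genes, which gave 4 probe sets, 1 per gene, of 15923 on the array (4 of 10411 named genes), and all 4 passed the filter on low values. The tissue was adult rat extraocular muscle, from which an orbital layer, on the side of the eye socket wall, and a global layer, on the side of the eyeball, were cut with a laser. RNA of 4 global and 4 orbital captures was amplified and hybridised to 1 Affymetrix array each. The labels describe the rats as adult only and name no strain, sex, treatment or animal, so captures may share an animal. The p-values measure only the spread between these captures. They are too small if captures of the same layer share an animal, and the main fit uses no pairing of captures across layers. Titles of captures 1 and 2 of each layer hold a code that begins with R2, and those of captures 3 and 4 a code that begins with R3. R2 and R3 are called title prefixes here, and the labels do not explain them. Orbital captures 3 and 4 have nearly the same title and may be repeats of 1 capture, which would leave 3 orbital captures; with their mean as 1 capture, Ldhb differed by 0.88 (limma adjusted p = 0.00455), Slc16a3 by -0.999 (0.00317) and Ldha by -0.65 (0.0898) on the log2 scale, orbital minus global.

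Lactate dehydrogenase interconverts pyruvate and lactate as a tetramer of M subunits, from Ldha, and H subunits, from Ldhb. M-rich tetramers are the usual form of fast glycolytic muscle, and H-rich tetramers that of heart and of oxidative muscle. Lactate crosses membranes with a proton through monocarboxylate transporters. MCT1, from Slc16a1, is known for lactate uptake in heart and oxidative fibres, and MCT4, from Slc16a3, for lactate release from glycolytic fibres. Both need the chaperone basigin to reach the membrane.

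Members differed between the layers in both directions, so the sequence upstream of each start site is shown for 3 genes: Ldha and Slc16a3, whose mean intensities were lower in the orbital layer, and Ldhb, whose intensity was higher there. These are the 250 bases before the RefSeq start site, in the GRCr8 build, read 5′ to 3′ on the strand of the gene. Capitals mark ACGTG on either strand, the core of the element through which low oxygen is known to induce Ldha.
Ldha (chr1:106507842-106508091, plus strand): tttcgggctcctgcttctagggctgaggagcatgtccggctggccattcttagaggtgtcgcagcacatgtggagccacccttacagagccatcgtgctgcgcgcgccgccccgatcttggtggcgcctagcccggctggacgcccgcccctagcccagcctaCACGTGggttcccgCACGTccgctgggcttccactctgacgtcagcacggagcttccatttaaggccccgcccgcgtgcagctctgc
Slc16a3 (chr10:106712078-106712327, plus strand): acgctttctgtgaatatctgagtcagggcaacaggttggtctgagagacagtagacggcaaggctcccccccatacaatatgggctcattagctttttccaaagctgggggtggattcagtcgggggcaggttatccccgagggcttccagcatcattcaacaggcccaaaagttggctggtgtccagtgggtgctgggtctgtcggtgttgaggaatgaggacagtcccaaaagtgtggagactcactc
Ldhb (chr4:177177409-177177658, minus strand): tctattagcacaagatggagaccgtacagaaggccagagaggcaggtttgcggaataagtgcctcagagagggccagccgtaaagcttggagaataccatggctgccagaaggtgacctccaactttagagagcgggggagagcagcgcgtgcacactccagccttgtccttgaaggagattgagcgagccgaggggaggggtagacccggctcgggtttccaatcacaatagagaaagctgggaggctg

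The Ldha window held 3 matches to ACGTG, 2 of them the overlapping strands of a single CACGTG that starts 87 bases before the start site. The third match began 73 bases before it. The Ldhb and Slc16a3 windows held 0 matches. The Slc16a1 window, not printed because its start site lies inside the annotated span of the gene, held 2 matches, the overlapping strands of a single CACGTG that starts 216 bases before the start site. Of 33469 RefSeq windows of this length, 16.6% held ACGTG on either strand. The longer CACGTG is also the sequence known as an E-box, and 5.59% of the windows held it. G and C made up 66.4% of the Ldha window, 56.4% of that of Ldhb, 54.0% of that of Slc16a3 and 74.0% of that of Slc16a1, against a median of 51.2% over all windows. The matches describe letters in these windows only.

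Ldhb rose in the orbital layer. Its intensity was 3081, 4016, 2814 and 3402 in global captures 1 to 4 and 6251, 5459, 6303 and 6971 in orbital captures 1 to 4. Every orbital capture lay above every global capture. The orbital mean was 6246 ± 619 (SD, n = 4) and the global mean 3328 ± 518, giving a log2 difference of 0.92 ± 0.14 (SE), orbital minus global here and below, or 1.89-fold (95% interval 1.52 to 2.34). The adjusted p was 0.00177 (limma, Benjamini-Hochberg adjustment over all 9520 probe sets tested). Since a capture is a piece of tissue, more cells that express a gene and more RNA per cell cannot be told apart, for this gene or any other.

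Ldha had a lower mean in the orbital layer but did not pass the test. Its intensity was 4650, 3829, 5255 and 4678 in global captures 1 to 4 and 4032, 2091, 3008 and 2925 in orbital captures 1 to 4. Of the orbital captures, 3 lay below every global capture, and orbital capture 1 lay above global capture 2, so the layers overlapped. The orbital mean was 3014 ± 795 (SD, n = 4) and the global mean 4603 ± 587, giving a log2 difference of -0.64 ± 0.18 (SE, adjusted p = 0.0508, limma). The 95% interval of that difference was -1.03 to -0.25 without adjustment for the number of probe sets tested. The adjusted p was 0.0187 without orbital capture 1, 0.0387 without global capture 2 and 0.130 without global capture 3. It was 0.0499 with the title prefix as a fixed replicate block and 0.0403 after cyclic loess normalization, and over 23 alternatives it passed in 9. RefSeq lists 30 rat pseudogenes named after Ldha and 1 after Ldhb, and signal shared with transcribed copies would leave the level of either gene uncertain.

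Slc16a3, the gene of the exporter MCT4, fell in the orbital layer. It was at 281, 197, 242 and 264 in global captures 1 to 4 and at 114, 124, 87.7 and 183 in orbital captures 1 to 4. The highest orbital capture, number 4, was below the lowest global capture, number 2. Orbital captures averaged 127 ± 40.2 (SD, n = 4) and global ones 246 ± 36.7, a log2 difference of -0.98 ± 0.21 (SE, adjusted p = 0.0104, limma), with a 95% interval from -1.43 to -0.54.

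Slc16a1, the gene of MCT1, did not pass the test, with means that lay close together. It read 230, 220, 182 and 212 in global captures 1 to 4 and 183, 212, 200.0 and 269 in orbital captures 1 to 4. The ranges overlapped, with orbital capture 4 alone above every global capture. Orbital captures averaged 216 ± 37.3 (SD, n = 4) and global ones 211 ± 20.7, and the log2 difference was 0.024 ± 0.15 (SE, adjusted p = 0.948, limma). Its 95% interval, -0.30 to 0.35, holds falls to 0.811-fold and rises to 1.27-fold, so changes within that range remain possible. The interval is not adjusted for the number of probe sets and does not give the smallest change that the test could call.

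**Figure D1:**
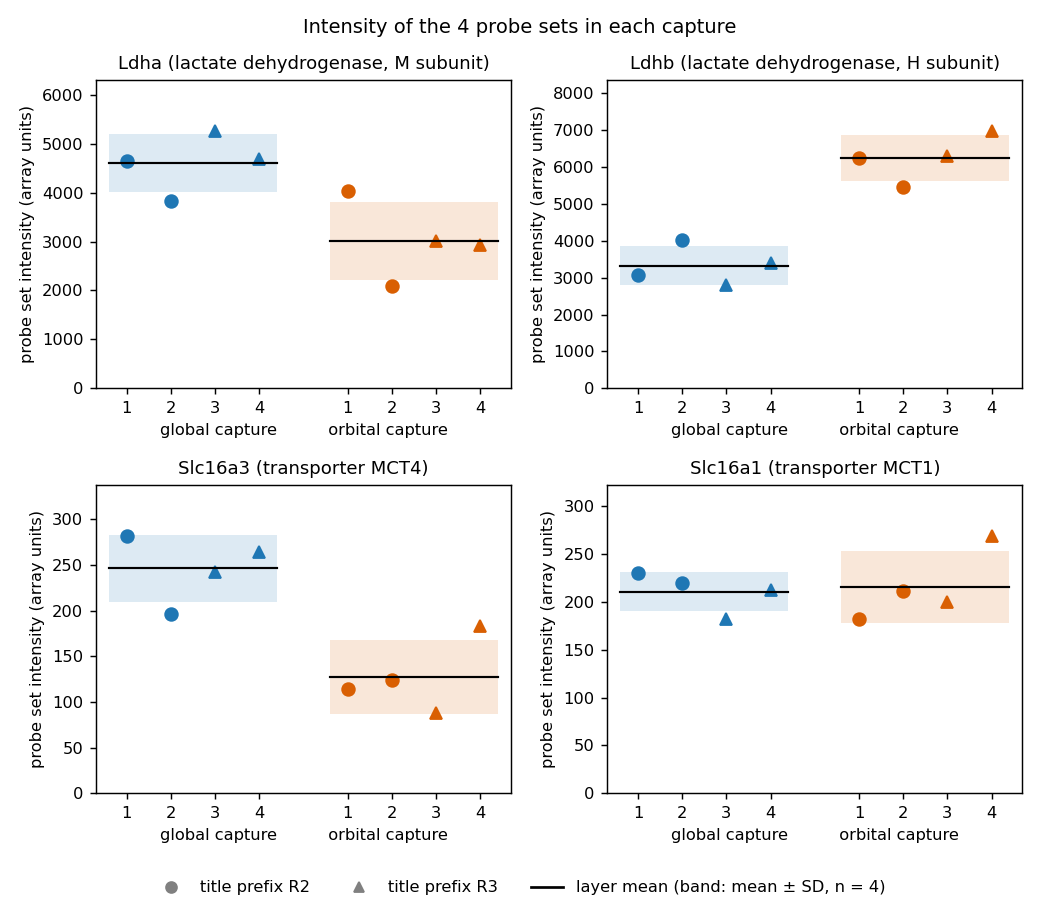
Probe set intensity (vertical axes, array units from 0) of Ldha, Ldhb, Slc16a3 and Slc16a1 in each of the 4 global (blue) and 4 orbital (orange) captures, with the layer mean as a line and the mean ± SD as a band. Circles are captures with the title prefix R2 and triangles those with R3. Ldhb separates upward (6246 against 3328), Slc16a3 downward (127 against 246), Ldha overlaps at orbital capture 1, and Slc16a1 overlaps in all but orbital capture 4.

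Set against all probe sets, 1 of the 4 members was called higher in the orbital layer, as were 3.91% of those tested, and 1 was called lower, as were 3.5%. In either direction 2 of 4 were called, where 7.41% of all probe sets were. Both called members were also the ones that did not overlap between the layers, a property of 14.1% of the probe sets tested.

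Within each capture the Ldhb to Ldha ratio of intensities was compared across layers. Probe sets bind their targets unequally, so a ratio of 1 does not mean equal amounts of transcript, and only its change between captures was read. The ratio was 0.663, 1.05, 0.535 and 0.727 in global captures 1 to 4 and 1.55, 2.61, 2.1 and 2.38 in orbital captures 1 to 4. Every orbital ratio exceeded every global one, and the lowest orbital ratio was 1.48 times the highest global ratio. On the log2 scale the mean ratio was 1.08 ± 0.33 (SD, n = 4) over the orbital captures and -0.47 ± 0.40 over the global ones. The difference was 1.56, or 2.94-fold, with an exact two-sided permutation p of 0.0286 (0.0286 after adjustment over both ratios), the smallest that 4 against 4 captures can give. Of the 1.56, the higher Ldhb gave 0.92 and the lower Ldha 0.64.

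The Slc16a1 to Slc16a3 ratio also separated the layers. It was 0.818, 1.12, 0.752 and 0.803 in global captures 1 to 4 and 1.60, 1.71, 2.28 and 1.47 in orbital captures 1 to 4. Again no orbital ratio reached down to a global one, the lowest orbital being 1.32 times the highest global ratio. The mean log2 ratio was 0.79 ± 0.27 (SD, n = 4) against -0.21 ± 0.25, a difference of 1.01 or 2.01-fold (exact two-sided permutation p = 0.0286, adjusted 0.0286). Slc16a3 gave 0.98 of this difference and Slc16a1 gave 0.024. With captures permuted only within their title prefix, both ratios had an exact p of 0.0556, the smallest that this replicate block allows, and did not pass.

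**Figure D2:**
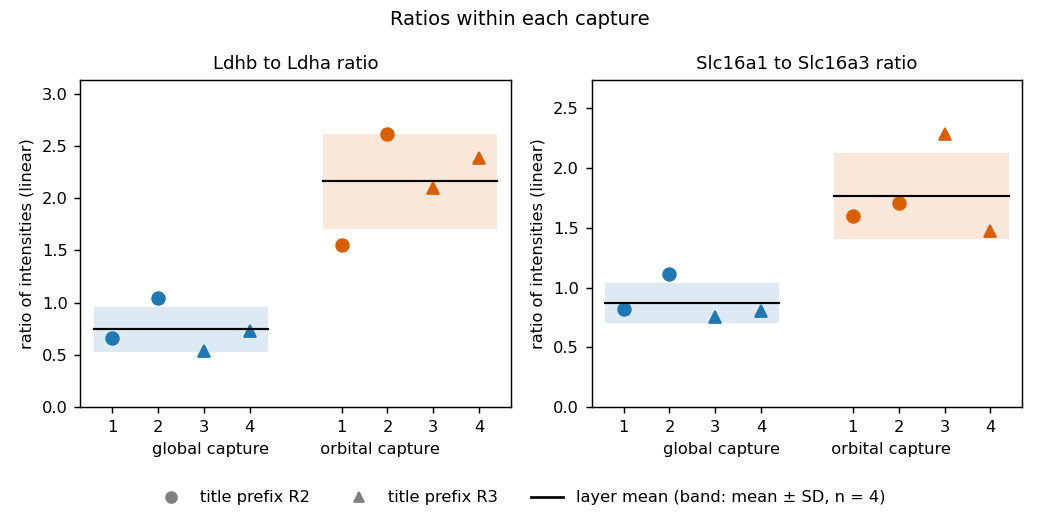
Ratio of intensities (vertical axes, linear from 0) of Ldhb to Ldha and of Slc16a1 to Slc16a3 in each global (blue) and orbital (orange) capture, with layer means as lines and mean ± SD as bands. In both panels all 4 orbital captures lie above all 4 global captures, from 1.55 upward against at most 1.05, and from 1.47 upward against at most 1.12.

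Both title prefixes gave the same sign for the 3 members with differences beyond 0.5. Between the 2 orbital and 2 global captures of prefix R2 the log2 difference was 0.73 for Ldhb, -0.54 for Ldha and -0.98 for Slc16a3, and within prefix R3 it was 1.1, -0.74 and -0.99. Slc16a1 differed by -0.19 in R2 and by 0.24 in R3. The ratio of Ldhb to Ldha differed by 1.27 in R2 and 1.84 in R3, and that of Slc16a1 to Slc16a3 by 0.79 and 1.23. The term for a change of the layer difference between prefixes did not pass for any member (limma adjusted p = 0.9999 for each), nor for any other probe set (0 of 9520, with 290 under 0.05 before adjustment). Before adjustment the p was 0.606 for Ldha, 0.212 for Ldhb, 0.182 for Slc16a1 and 0.974 for Slc16a3 in this limma fit.

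Other signals of the captures moved with the layers in part. Of 7 photoreceptor genes on the array, 6 were tested and 1, Guca1a, was higher in the orbital layer. The 7 genes summed to 1657 to 3849 in the orbital and 446 to 1847 in the global captures, with Guca1a the brightest of them in every orbital capture. Guca1a was at 1028 to 1664 in the orbital and 208 to 450 in the global captures, and each of the other 6 genes overlapped between the layers. Those were uneven within a layer: Sag was at 345, 2.2, 13.2 and 389 in global captures 1 to 4 and at 138, 802, 166 and 467 in orbital captures 1 to 4. The 3′ to 5′ ratio of the Gapdh control probe sets was highest in orbital captures 3 (12.9) and 4 (8.64). In orbital captures 1 and 2 it was 6.33 and 5.81, and in the global captures 5.35 to 6.47 (exact two-sided permutation p = 0.114 between the layers). The same ratio of the beta actin probe sets was 7.87 to 9.16 in the orbital and 7.69 to 10.7 in the global captures (exact permutation p = 0.543). The label of the tissue was checked on muscle fibre genes: Acta1 was at 6756 or more and Myh13, the heavy chain typical of extraocular muscle, at 9693 or more in every capture. The 8 muscle fibre genes summed to 47535 to 69378 in orbital and 52827 to 73851 in global captures, with Mb called higher and Ttn lower. Sums of 8 endothelial genes (1050 to 1587 against 1043 to 1216, 1 called higher), 5 Schwann cell genes (2586 to 5305 against 1300 to 4873, 1 called higher) and 6 fibroblast genes (4847 to 7506 against 3554 to 6712, 0 called) overlapped. So did those of 3 red blood cell genes (282 to 748 against 262 to 1168), 9 leukocyte genes (1149 to 1604 against 1157 to 2227) and 4 adipocyte genes (208 to 324 against 218 to 459), with 0 called in these 3 lists. The overlap of the sums does not hold gene by gene. Eng (52.7 to 103.9 against 20.2 to 49.6), Vwf (162 to 203.6 against 121.1 to 157.7) and Flt1 (87 to 103 against 52.2 to 73.2), of endothelium, were higher in every orbital than in every global capture. So was Cnp, of Schwann cells (188.6 to 339.6 against 143.4 to 180.6). The other endothelial, Schwann cell and fibroblast genes overlapped. None of the markers was listed at 0. The part of the markers and of the 3′ to 5′ ratios in the results was not tested.

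Genes around the members were taken from 5 lists, each gene by its brightest tested probe set, where 4.09% of 7163 genes were called higher in the orbital layer and 3.59% lower and the median log2 difference was 0.024. Of 4 carriers and chaperones tested beside Slc16a1 and Slc16a3, 1 fell, 0 rose and 3 did not pass, with a median of -0.16. Slc16a6, another member of the monocarboxylate transporter family, averaged 277 ± 33.2 (SD, n = 4) over orbital captures against 471 ± 45.6 over global ones (log2 difference -0.77 ± 0.13 SE, limma adjusted p = 0.00305), but a second probe set of it differed by -0.054 (adjusted p = 0.906). Bsg, the basigin gene, differed by 0.099 ± 0.16 (adjusted p = 0.774), and embigin, Emb, by -0.34 ± 0.30 (adjusted p = 0.566). Slc16a12 differed by 0.015 ± 0.24.

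Of 6 other enzymes that make or use pyruvate or lactate, or stand beside them, 1 fell, 0 rose and 5 did not pass, with a median of 0.12. Me1, malic enzyme, averaged 397 ± 24.8 (SD, n = 4) over orbital captures against 622 ± 73.2 (-0.64 ± 0.12 SE, limma adjusted p = 0.00665). Its second probe set differed by -0.43 (adjusted p = 0.240). Ldhd, the D-lactate dehydrogenase of mitochondria, had 282 ± 24.7 against 205 ± 20.3 without overlap (0.46 ± 0.13 SE, adjusted p = 0.0529). Mdh1, cytosolic malate dehydrogenase, differed by 0.42 (adjusted p = 0.0957) at its brightest probe set and by 0.77 (adjusted p = 0.0300) at a second. Got1, the cytosolic aspartate aminotransferase, differed by 0.26 (adjusted p = 0.506).

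At the entry of pyruvate into mitochondria, the regulators of pyruvate dehydrogenase moved in both directions: among 13 genes tested the calls were 2 upward and 1 downward, 10 genes had none, and the median was 0.082. Pdk1, a kinase that inactivates the enzyme, averaged 356 ± 81.4 (SD, n = 4) over orbital captures against 185 ± 11.0 (0.92 ± 0.16 SE, limma adjusted p = 0.00358), and a second probe set also rose (0.77, adjusted p = 0.0391). The phosphatases that reactivate it split. Pdp1 had 148 ± 21.9 against 302 ± 27.2 (-1.03 ± 0.14 SE, adjusted p = 0.000825) and Pdp2 had 140 ± 59.0 against 61.1 ± 8.27 (1.11 ± 0.26 SE, adjusted p = 0.0185). The Pdp2 call was lost without orbital capture 1, orbital capture 3 or global capture 3 (adjusted p 0.0512 to 0.0601). Pdk2 differed by -0.57 (adjusted p = 0.126), a call gained without global capture 2 (0.0279).

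Genes listed for their ties to low oxygen did not move one way. This list is not complete. It held none of the 4 members, though Ldha, for 1, is usually counted among the genes that low oxygen induces. Among the 17 tested, the calls were 2 upward and 3 downward, 12 genes had none, and the median was 0.085. Hif1a, the oxygen-regulated transcription factor subunit, averaged 671 ± 163 (SD, n = 4) over orbital captures against 358 ± 78.9 (0.90 ± 0.20 SE, limma adjusted p = 0.0136), and Eno1, the enolase found in most tissues, rose by 0.71 (adjusted p = 0.00823). Egln3, a prolyl hydroxylase that marks HIF for degradation, had 652 ± 271 against 1569 ± 152 (-1.34 ± 0.22 SE, adjusted p = 0.00220). Pfkfb3, which makes the activator of phosphofructokinase, fell by 1.01 (adjusted p = 0.0196), while its second probe set differed by 0.24 (adjusted p = 0.655). The Pfkfb3 call was lost without orbital capture 2 (0.0524), without global capture 3 (0.0712) and without the filter (0.0510), and the count of called genes in this list was 3 without either of those captures. The third that fell, Mxi1, was outside the 4 with the smallest p and is named after its value was seen (-0.58, adjusted p = 0.0205, and -0.95, adjusted p = 0.0387, at its second probe set).

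Of 8 regulators of oxidative fibre genes, 1 fell, 0 rose and 7 did not pass, with a median of 0.0062. Prkaa2, the catalytic AMP-activated kinase subunit of muscle, differed by -0.88 ± 0.23 (SE, limma adjusted p = 0.0312), a call lost on leaving out any 1 of 6 captures (adjusted p 0.0699 to 0.0954), and kept without global capture 2 or without orbital capture 1. Ppargc1a, a coactivator known to raise Slc16a1 in muscle, averaged 86.8 ± 38.9 (SD, n = 4) over orbital captures against 42.7 ± 14.3 (0.92 ± 0.35 SE, adjusted p = 0.145; 0.0215 without orbital capture 3). Mef2d differed by -0.12 (adjusted p = 0.721) at its brightest probe set and by -0.80 (adjusted p = 0.0602) at a second, and Esrra differed by 0.078 (adjusted p = 0.854).

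**Figure D3:**
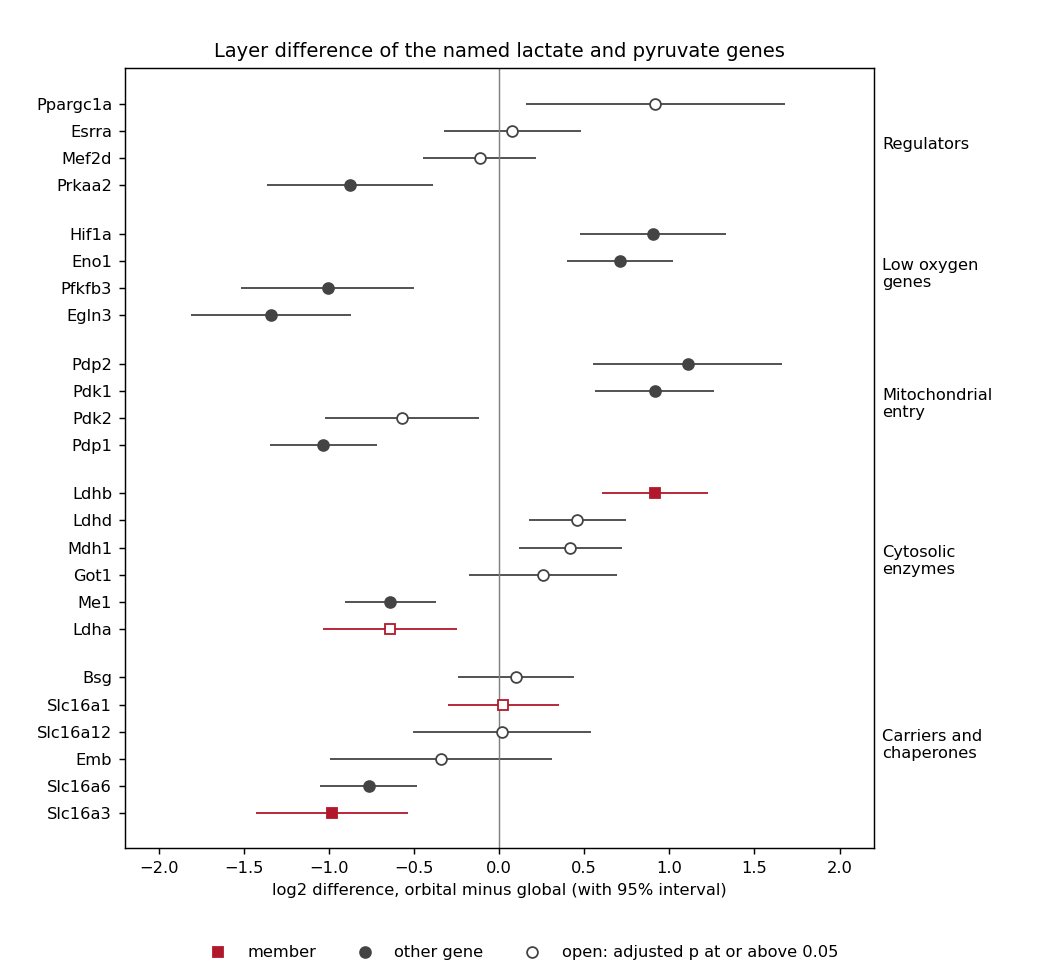
Log2 difference between the layers (horizontal axis, orbital minus global, with 95% intervals not adjusted for the number of probe sets) of the members (red squares) and the other named genes (grey circles) of the 5 lists. Filled symbols passed an adjusted p of 0.05 and open ones did not. Ldhb lies at 0.92 and Slc16a3 at -0.98, Slc16a1 lies at 0.024 with its interval across 0, and each of the lists of mitochondrial entry and low oxygen has filled symbols on both sides.

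The genes most like each member were those with the highest Pearson r of log2 values over the 8 captures, which describes these captures only. Since a shared layer difference alone raises r, the r of deviations from the layer means is given beside it. Closest to Ldhb were Anxa5, an annexin (r = 0.990, deviations 0.908), Pgam1, a phosphoglycerate mutase isoform (0.988, deviations 0.916), and Ndrg4 (0.985, deviations 0.873). These rose by 0.94 (adjusted p = 0.000902), 1.08 (0.000221) and 1.38 (0.000450) on the log2 scale. Closest to Slc16a3 were Prxl2a (r = 0.978, deviations 0.931), Nmrk2, a nicotinamide riboside kinase of muscle (0.972, deviations 0.895), and Babam1 (0.966, deviations 0.927), of which Prxl2a fell by 1.16 (adjusted p = 0.0105) and Nmrk2 fell by 0.90 (adjusted p = 0.0113).

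Closest to Ldha were Sars1, a transfer RNA synthetase (r = 0.994, deviations 0.985), Tirap (0.972, deviations 0.929) and Ptcd3 (0.971, deviations 0.929). Ptcd3 fell by 0.59 (limma adjusted p = 0.0451), a call that held in 8 of 23 alternatives. Tirap (-0.61, limma adjusted p = 0.0639) and Sars1 (-0.23, limma adjusted p = 0.312) did not pass. Closest to Slc16a1 were Lmcd1 (0.956, deviations 0.957), the potassium channel gene Kcna5 (0.945, deviations 0.954) and Ufsp1 (0.929, deviations 0.929). Among the members themselves, the deviations from the layer means had r = 0.019 for Ldha with Slc16a3, -0.072 for Ldha with Ldhb, and -0.049 for Ldhb with Slc16a3. With Slc16a1 they had r = 0.656 for Slc16a3, 0.483 for Ldhb and -0.434 for Ldha.

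**Figure D4:**
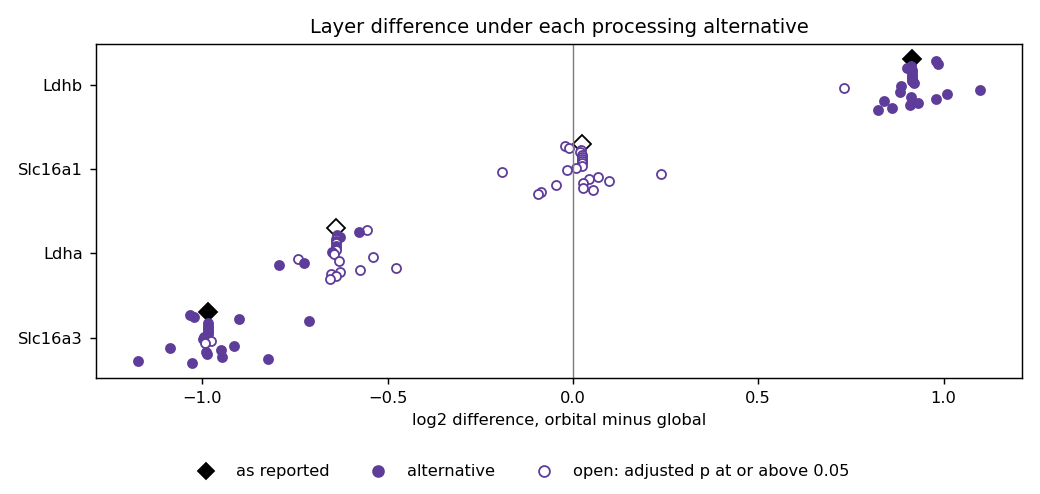
Log2 difference between the layers (horizontal axis, orbital minus global) of the 4 members as reported (black diamonds) and under 23 processing alternatives (purple circles), with filled symbols for an adjusted p under 0.05. Ldhb stays between 0.73 and 1.1 and Slc16a3 between -1.17 and -0.71, Ldha lies between -0.79 and -0.48 with filled and open symbols, and Slc16a1 falls on both sides of 0, from -0.19 to 0.24.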

How the data were processed

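Laser-captured layers of rat extraocular muscle were measured, 4 captures each. Per the labels, amplification was T7-based and each sample went on a 1-colour RAE230A array. The authors deposited 1 linear intensity per probe set and array. For the summarising software, background correction and detection calls, the step was not given in the sources used here. Trimmed means of the arrays (2% from each end) differed by at most 0.00389%, so no further normalization was applied. Array medians were 58.8 to 66.3.

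Values were analysed as log2(intensity + 1) in limma 3.58.1 (R 4.3.3, lmFit, eBayes with trend), with layer as the only term, over the 9520 of 15866 non-control probe sets at or above the 40th percentile of mean log2 value (an intensity of 39.4), with Benjamini-Hochberg adjustment and a threshold of 0.05. Log2 ratios were tested by exact two-sided permutation, counting absolute mean differences at least as large. The fit was tested on simulated data. The platform annotation, which can be old, named 1 gene for 12783 probe sets, 312 had several names and 2771 had none. Upstream sequences are from RefSeq (GRCr8) and were matched for all 4 members.

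Members and lists were chosen with earlier results of these data known. Named beside the members were up to 4 genes of each list with the smallest p and the 3 genes most like each member. Alternatives were normalization, pseudocounts of 16 and 64, filter, eBayes options, prefix blocks, array weights, averaged or left-out captures and each prefix alone. For the ratios there was also no pseudocount and the mean over probe sets. A fit leaving out orbital captures 3 and 4 was added after seeing the data.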

Additional observations from a re-analysis of the deposited data

Results flagged for a closer look

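Among 76 groups of 4 captures checked (the members, their ratios and the other named genes in each layer), 3 held a capture far from the others by Dixon's test, where chance gives about 1 in 20 groups. No member and no ratio was among them. Eno1 in orbital capture 2 was at 262.5, below the other orbital captures (336 to 350). Ppargc1a in global capture 1 was at 64, above the other global captures (33.2 to 36.9). Ufsp1 in global capture 3 was at 221, below the other global captures (310.0 to 319).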

How the results depend on the processing

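Signs of the differences of Ldhb, Slc16a3 and Ldha and of both ratios held under every alternative run. The differences of Ldhb and Slc16a3 passed when any 1 capture was left out (adjusted p up to 0.0100 and 0.0380), and with 2 against 2 captures the call was lost for Ldhb in prefix R2 (0.73, adjusted p = 0.133) and for Slc16a3 in R2 (-0.98, 0.114) and R3 (-0.99, 0.175). So 0 members were called in R2 and 1 in R3. Ldha passed with cyclic loess (-0.58), pseudocounts of 16 (-0.64) and 64 (-0.63), the filter at the 60th percentile, robust eBayes and the fixed replicate block (-0.64 in each), array weights (-0.65), and without global capture 2 or orbital capture 1, and ranged from -0.79 to -0.48 with 1 capture left out. Slc16a1 changed sign without passing under quantile (-0.021) and cyclic loess (-0.011) normalization, with orbital captures 3 and 4 averaged (-0.015), in R2 (-0.19), with orbital captures 1 and 2 alone (-0.094) and with 1 capture left out (-0.086 to 0.099). With the prefix as a replicate block, the ratio differences (1.56 and 1.01) had an exact permutation p of 0.0556, the smallest that design allows.

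The alternatives were also run for 26 of the other named genes, and not for Sars1, Tirap, Babam1, Lmcd1, Kcna5 and Ufsp1. Of the 592 values of those 26 genes, 514 kept sign and side of the threshold, 59 lost the call, 7 gained it and 12 changed sign, none of the last (0) past the threshold. Those were Slc16a12 with array weights (-0.033), orbital captures 3 and 4 averaged (-0.0041), R2 (-0.20), orbital captures 1 and 2 alone (-0.043) and 1 capture left out (-0.074 to 0.11), and in R3 Got1 (-0.017), Mef2d (0.010) and Esrra (-0.10), the last also from -0.0028 to 0.15 with 1 capture left out. Among all probe sets tested, the main fit called 705. Separate fits called 468 without global capture 3, 106 in R2 and 166 in R3. These are totals of each fit, and their overlap with the calls of the main fit was not counted. No detection calls were available, and Slc16a3, at 1.36 to 4.74 times the array median, and Slc16a1, at 2.98 to 4.42 times, are the members nearest to background. The cause of these changes was not tested.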
